A study of Mus musculus with 54 samples.

Results

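The circadian clock genes Clock, Arntl, Per1, Per2, Per3, Cry1, Cry2, Nr1d1, Nr1d2 and Dbp were followed in RNA-seq counts from 3 brain regions of the same mice. These 10 genes were chosen by name, out of 47069 genes in the count table, and all 10 passed the filter on low counts in each region. The libraries came from cerebellum, cortex and striatum of 18 mice on a C57BL/6 background at 8 weeks of age, 1 library per mouse and region. Of these mice, 10 were Mbd5+/GT, heterozygous for a gene-trap insertion in an intron of Mbd5 that lowers its expression and leaves the other allele intact, and 8 were wild-type littermates (WT). The females of litter 1 were 3 Mbd5+/GT and 3 WT, the males of litter 2 were 4 Mbd5+/GT and 1 WT, and litter 3, with both sexes, had 3 Mbd5+/GT and 4 WT. Mice are named by the numbers of the labels. All mice were kept under a fixed light and dark cycle, and the hour at which each mouse was killed is not given in the sources used here.

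The molecular clock is a feedback loop that runs in nearly every cell with a period of about a day. CLOCK and ARNTL (BMAL1) bind together to E-box sequences and switch on the Per and Cry genes, whose proteins return to the nucleus and repress CLOCK and ARNTL. The same pair switches on Nr1d1 and Nr1d2, which encode the REV-ERB repressors of Arntl transcription, and Dbp, an output factor that binds D-box sequences, so that in tissues with a running clock Dbp and Arntl peak at roughly opposite phases. In the brain the suprachiasmatic nucleus sets the phase of clocks elsewhere, the cortex, striatum and cerebellum included. A single sample per mouse and region therefore holds one time point of each clock, and mice killed at different phases would differ in these genes.

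In the GENCODE vM21 annotation of GRCm38 the activators lie at chr5:76209868-76304792 on the minus strand (Clock) and chr7:113207465-113314126 on the plus strand (Arntl). The Per genes lie at chr11:69095217-69109960 (Per1, plus), chr1:91415982-91459324 (Per2, minus) and chr4:151003652-151044665 (Per3, minus), and the Cry genes at chr10:85131700-85185064 (Cry1, minus) and chr2:92403646-92434043 (Cry2, minus). The REV-ERB genes lie at chr11:98767932-98775333 (Nr1d1, minus) and chr14:18204054-18239127 (Nr1d2, minus), and Dbp at chr7:45705088-45710203 on the plus strand. Values are counts over the exons of each gene.

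Promoter sequences show which members carry the sequence elements of that loop next to their start. RefSeq promoters (GRCm38.p6) were matched for 9 of the 10 members, with no entry used for Per2, and the 250 bases before each start were searched on both strands for the E-box CACGTG, the D-boxes TTATGTAA and TTATGCAA, and AGGTCA, the core bound by ROR and REV-ERB receptors. The E-box was present in 6.02% of all 32851 promoters, TTATGTAA in 0.819%, TTATGCAA in 0.694% and AGGTCA in 14%. Among the members, Per1 and Cry1 held the E-box, Per1 and Per3 held a D-box, and Per1, Nr1d2 and Clock (at 1 of its starts) held AGGTCA or its complement TGACCT. Arntl, Cry2, Nr1d1 and Dbp held none of these letters in this window. The promoters of Per1, Per3 and Cry1 are shown because they hold E-boxes and D-boxes, and that of Ciart, a repressor of CLOCK and ARNTL outside the 10 members, because its levels are compared with theirs further on. Capitals mark the matched motifs, and positions count back from the base before the start. Per1 lies on the plus strand at chr11:69098699-69098948 and holds TTATGCAA at bases 17 to 24, TGACCT at 132 to 137 and CACGTG at 161 to 166. Per3 lies on the minus strand at chr4:151044666-151044915 and holds TTATGTAA at 151 to 158 and again at 198 to 205. Cry1 lies on the minus strand at chr10:85185055-85185304 with CACGTG at 55 to 60, and Ciart on the minus strand at chr3:95882229-95882478 with CACGTG at 39 to 44, 53 to 58 and 111 to 116.
Per1: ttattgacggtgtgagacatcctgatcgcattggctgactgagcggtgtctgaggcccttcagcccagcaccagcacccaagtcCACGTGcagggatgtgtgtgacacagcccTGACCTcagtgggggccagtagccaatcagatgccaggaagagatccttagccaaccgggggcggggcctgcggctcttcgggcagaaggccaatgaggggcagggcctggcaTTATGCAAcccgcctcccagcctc
Per3: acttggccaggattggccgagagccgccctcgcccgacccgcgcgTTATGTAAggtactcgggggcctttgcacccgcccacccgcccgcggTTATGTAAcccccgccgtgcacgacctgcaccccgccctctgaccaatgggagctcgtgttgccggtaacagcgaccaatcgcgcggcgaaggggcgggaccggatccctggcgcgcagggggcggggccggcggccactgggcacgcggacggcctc
Cry1: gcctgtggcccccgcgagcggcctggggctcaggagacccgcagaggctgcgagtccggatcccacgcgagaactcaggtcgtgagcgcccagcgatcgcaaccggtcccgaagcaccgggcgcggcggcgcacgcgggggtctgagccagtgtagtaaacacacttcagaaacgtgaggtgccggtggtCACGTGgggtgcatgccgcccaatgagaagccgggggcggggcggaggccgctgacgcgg
Ciart: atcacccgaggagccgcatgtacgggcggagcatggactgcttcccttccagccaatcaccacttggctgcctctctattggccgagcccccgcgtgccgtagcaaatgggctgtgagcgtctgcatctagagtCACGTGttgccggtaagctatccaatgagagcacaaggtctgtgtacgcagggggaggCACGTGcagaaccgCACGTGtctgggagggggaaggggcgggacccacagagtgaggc

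Libraries held 25296000 to 49027400 counts on genes, and the lowest count of any member in any library was 319, so that the spread between mice and not counting error set the precision. Mbd5 stood at 42.3 ± 10.9 CPM (counts scaled by TMM to a common library size; SD, n = 10) in Mbd5+/GT cerebellum and 55.0 ± 10.8 (n = 8) in WT cerebellum, at 46.0 ± 4.44 and 65.9 ± 9.56 in cortex, and at 36.1 ± 5.01 and 48.1 ± 8.49 in striatum. In 4 libraries the summed CPM of the markers of the labelled region was under 33.3% of the region's median, a limit set after the values were seen. They were the cerebellum of the Mbd5+/GT mouse M755 (104 CPM against a median of 4391), the cerebellum of the WT mouse M754 (1406 CPM), and the striatum of the WT mice M754 and M761 (126 and 383 CPM against a median of 2516). Markers of other tissues varied widely as well. Those of choroid plexus summed to between 15.9 and 2506 CPM in cerebellum, 9.5 and 1287 CPM in cortex and 13.6 and 6030 CPM in striatum. Cortex markers summed to between 30.9 and 1398 CPM in striatum libraries (median 682), against a median of 1159 in cortex libraries. The highest of these striatum libraries, that of M756, held 1086 CPM of striatum markers and was above the limit. Striatum markers summed to between 117 and 1293 CPM in cortex libraries (median 476). Results that rest on the 4 libraries are given with and without them. In bulk tissue fewer cells of a type and less RNA per cell cannot be told apart. Without a stated strand setting, reads of Dbp and Sphk2, Nr1d1 and Thra, and Cry2 and D930015M05Rik, whose exons overlap on opposite strands over 539, 263 and 295 bases, cannot be told apart either.

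All 10 members were expressed in each region, and the regions differed most in Cry1, Nr1d2, Clock and Dbp. Cry1, a core repressor, stood at 46.6 ± 11.8 CPM in cerebellum, 20.8 ± 3.93 in striatum and 16.7 ± 2.11 in cortex (SD, n = 18 each). In cerebellum its values ran from 13.9 to 57.6 CPM and in cortex from 12.4 to 20.6. The only cerebellum value within the cortex range was that of mouse M755, the library nearly without cerebellum markers, and without the 2 low-marker cerebellum libraries the cerebellum range was 33.2 to 57.6 CPM. The log2 difference of Cry1 was 1.47 (SE 0.11, adjusted p = 4.24e-17) between cerebellum and cortex and 1.16 (SE 0.11, adjusted p = 1.13e-13) between cerebellum and striatum by edgeR's quasi-likelihood test.

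Nr1d2, which encodes REV-ERB beta, fell in steps across the regions, from 262 ± 57.2 CPM in cerebellum to 167 ± 33.7 in cortex and 111 ± 31.1 in striatum. Its lowest cerebellum value, 159 CPM in mouse M755, lay inside both other ranges, and the highest value in cortex was 224 CPM and in striatum 172 CPM. The log2 differences were 0.65 (SE 0.11) between cerebellum and cortex, 1.27 (SE 0.11) between cerebellum and striatum and 0.62 (SE 0.11) between cortex and striatum, all past an adjusted p of 0.05. Clock followed the same order at 133 ± 40.9, 109 ± 20.3 and 69.5 ± 13.7 CPM. Its log2 difference was 0.29 (SE 0.11, adjusted p = 0.0210 by edgeR) between cerebellum and cortex and 0.96 (SE 0.11) between cerebellum and striatum.

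Dbp was the one member with its highest level in striatum by more than 1 SD of that region. It ran from 68.6 to 220 CPM there, with a median of 129, from 40.3 to 144 CPM in cerebellum, with a median of 61.6, and from 42.9 to 116 CPM in cortex, with a median of 68.8. The ranges overlapped in all 3 regions. Striatum exceeded cerebellum by 0.96 on the log2 scale (SE 0.17, adjusted p = 9.90e-07) and cortex by 0.84 (SE 0.16, adjusted p = 2.60e-05). Within striatum Dbp also moved with the striatum markers themselves, with Pearson's r of 0.79 over the 18 libraries and 0.77 without the 2 low-marker libraries, given as a description of points that share a library, its depth and its tissue makeup. The part of this in the difference between regions was not tested.

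The repressors Per1 and Cry2 were lower in cerebellum than in both other regions. Per1 averaged 104, 132 and 138 CPM in cerebellum, cortex and striatum, with log2 differences of cerebellum of -0.35 (SE 0.11) from cortex and -0.41 (SE 0.11) from striatum. Cry2 averaged 120, 151 and 153 CPM, with differences of -0.33 (SE 0.069) and -0.35 (SE 0.069). Per1 and Cry2 did not pass between cortex and striatum, where their differences were -0.07 (SE 0.11) and -0.02 (SE 0.069). Per3 was lower in striatum (58.1 CPM) than in cerebellum (72.1 CPM, log2 difference 0.31, SE 0.11) and cortex (76.8 CPM, 0.41, SE 0.11). Arntl passed between cerebellum and striatum (0.35, SE 0.13), Nr1d1 between cerebellum and cortex (0.28, SE 0.098), Cry1 between cortex and striatum (-0.31, SE 0.11), and Per2 in no pair. With the mouse as a block Per2 passed as well, with log2 differences of -0.25 (adjusted p = 0.0238 by edgeR) between cerebellum and cortex and 0.24 (adjusted p = 0.0374) between cortex and striatum. Per2, a repressor induced by light and hormones as well as by the loop, ran from 25.9 to 97.1 CPM in cerebellum (median 53.5), from 42.4 to 103 in cortex (median 62.9) and from 33.2 to 85.1 in striatum (median 54.2), and the regions overlapped over most of these ranges. Nr1d1, which encodes REV-ERB alpha, ran from 72.6 to 182 CPM in cerebellum (median 119), from 73.7 to 139 in cortex (median 99.6) and from 89.7 to 136 in striatum (median 108). Its spread was smallest in striatum, with an SD of 13.7 CPM against 30.4 in cerebellum and 22.7 in cortex.

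In all, 6 members passed an adjusted p of 0.05 between cerebellum and cortex, where 68.9% of all genes tested did, 8 between cerebellum and striatum, against 75.2% of all genes, and 5 between cortex and striatum, against 58.9%. These shares are near those of all genes. With the mouse as a replicate block 7, 8 and 6 members passed, against 69%, 75.7% and 59.4% of all genes, and without the 4 low-marker libraries 7, 9 and 5 did, against 71.7%, 76.9% and 61.6%. Without the latter, Cry1 differed from cerebellum to cortex by 1.57 and from cerebellum to striatum by 1.21, Nr1d2 by 0.71 and 1.29, and Dbp by -1.02 from cerebellum to striatum and by -0.93 from cortex to striatum, each as the level of the first region over the other on the log2 scale. Among the genes that act with the members, Npas2, which stands in for CLOCK in forebrain, was lower in cerebellum, with log2 differences of -3.21 from cortex and -3.44 from striatum. Of 6 other activators and repressors 5, 3 and 3 passed in the 3 pairs of regions, of Tef, Hlf and Nfil3 2, 3 and 1, of 8 clock kinases and ubiquitin ligases 5, 5 and 5, and of 3 rhythmic outputs 2, 3 and 2. Of 10 glucocorticoid targets 6, 6 and 4 passed, and of 10 immediate early genes 9, 9 and 2.

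**Figure D1:**
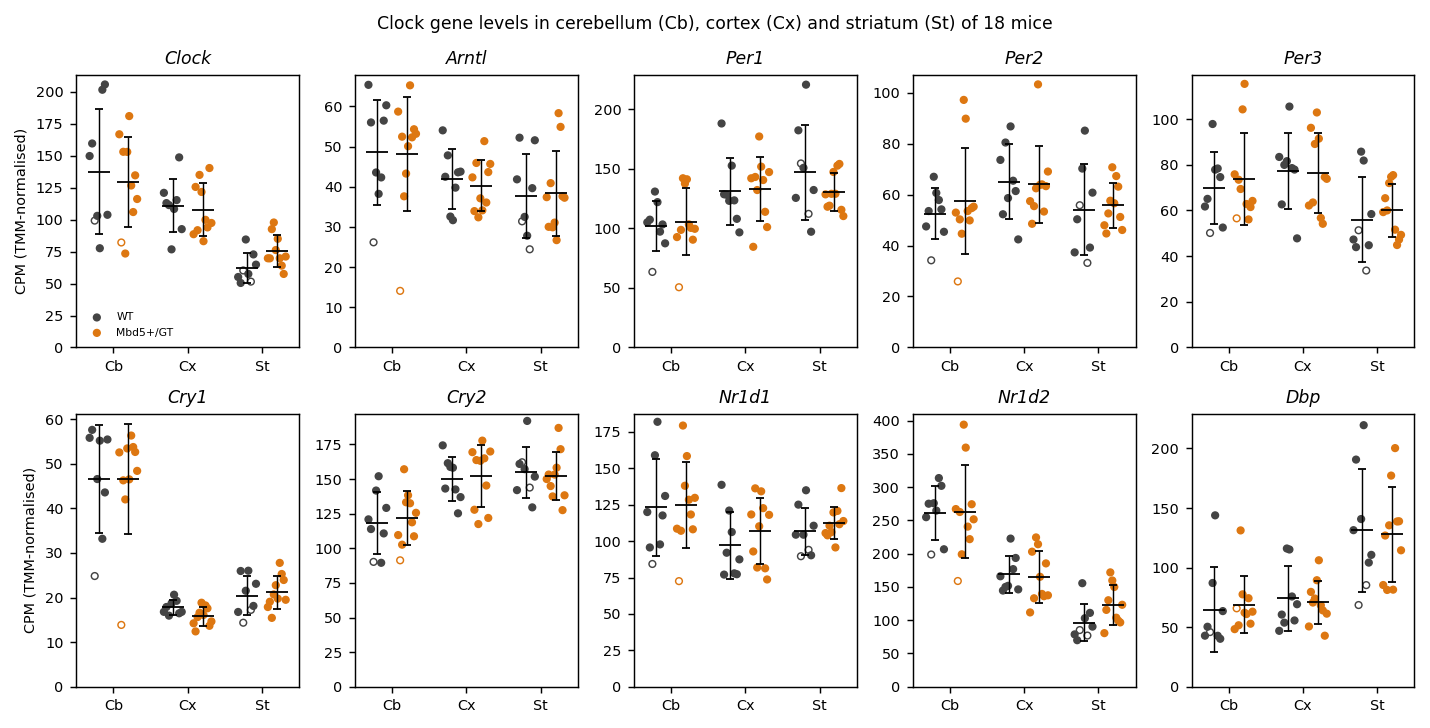
Expression in CPM (counts scaled by TMM) of the 10 clock genes in cerebellum (Cb), cortex (Cx) and striatum (St), 1 point per library, with WT in grey and Mbd5+/GT in orange; bars give the mean and SD of a genotype, and open points are the 4 libraries low in the markers of their region. The genotypes overlap in every panel, Cry1 is highest in cerebellum at 46.6 CPM on average, and Dbp is highest in striatum at 129 CPM in the median library.

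Levels were also set against each other per kilobase of exon, since counts grow with transcript length. On that scale Nr1d2 (48.5 ± 10.6 CPM per kb, SD, n = 18) and Nr1d1 (40.4 ± 9.88) led in cerebellum, and they differed by less than 1 SD. Nr1d1 (33.4 ± 7.39) and Nr1d2 (30.8 ± 6.23) also led in cortex, again within 1 SD of each other. In striatum Dbp led with 43.3 ± 14.7 CPM per kb and Nr1d1 followed within 1 SD at 35.7 ± 4.44, while Nr1d2 stood below Per1 and Cry2 at 20.6 ± 5.75. The lowest levels per kilobase were those of Arntl in cerebellum (6.42 ± 1.77), of Cry1 (5.00 ± 0.631) and Arntl (5.45 ± 0.892) in cortex, and of Clock (5.06 ± 0.995) and Arntl (5.06 ± 1.36) in striatum. Both activators of the loop therefore stood below the REV-ERB genes in each region.

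Genotype was then compared within each region, with 2 surrogate variables for cerebellum and 4 for each other region, which stand for unlabelled variation between libraries. No member passed an adjusted p of 0.05 in any region by edgeR's quasi-likelihood test. The share of all genes that passed was 0.00551% for cerebellum, 0.0107% for cortex and 0.00539% for striatum, and Mbd5 was among them each time. DESeq2 with the same surrogate variables also called no member. At an unadjusted p under 0.05, 0 members passed in cerebellum (2.75% of all genes), 1 in cortex (8.47%) and 1 in striatum (7.44%), and DESeq2 gave the same counts of 0, 1 and 1. Without the low-marker libraries 0 members passed the unadjusted threshold in cerebellum and 0 in striatum by edgeR. The fitted log2 fold changes of the 10 members ran from -0.20 (Per1 in striatum, SE 0.13) to 0.16 (Nr1d2 in striatum, SE 0.077), and the standard errors from 0.055 for Cry1 to 0.22 for Dbp, both in cerebellum. The median over the members was 0.01 for cerebellum, -0.0045 for cortex and -0.02 for striatum.

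Cry1 in cortex and Clock in striatum were the 2 members past the unadjusted threshold. Cry1 ran from 12.4 to 18.8 CPM in Mbd5+/GT cortex, with a median of 15.9, and from 15.9 to 20.6 CPM in WT cortex, with a median of 17.3. The groups overlapped, and 8 of the 10 Mbd5+/GT values were under the WT average. Its log2 fold change was -0.16 (SE 0.070, edgeR p = 0.0387, adjusted p = 0.551). In cortex Cry1 moved with the striatum markers (r = 0.63 over 18 libraries, a description of points that share a library), whose sum had a median of 393 CPM in Mbd5+/GT and 859 CPM in WT cortex, and the part of this in the difference was not tested.

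Clock ran from 57.5 to 97.7 CPM in Mbd5+/GT striatum, with a median of 70.4, and from 50.5 to 84.5 CPM in WT striatum, with a median of 58.9. The groups overlapped over most of their ranges, and 1 of the 10 Mbd5+/GT values was under the WT average. The log2 fold change was 0.13 (SE 0.058, edgeR p = 0.0336, adjusted p = 0.643). Over the 18 striatum libraries Clock moved against the erythrocyte markers (r = -0.58, and -0.66 without the low-marker libraries). Without the low-marker libraries it moved with the cerebellum markers (r = 0.60) and against the striatum markers (r = -0.57, and 0.01 over all 18). The erythrocyte markers had medians of 116 CPM in Mbd5+/GT and 121 CPM in WT striatum. In the same order the cerebellum markers had 27.9 and 41.2 CPM and the striatum markers 2215 and 2708 CPM. The part of these markers in the difference was not tested. Nr1d2 differed in the same direction as Clock, with medians of 119 CPM in Mbd5+/GT and 87.8 CPM in WT striatum. The fold change of Nr1d2 was 0.16 (SE 0.077, edgeR p = 0.0596). Its r with the cerebellum markers was 0.40, and 0.67 without the low-marker libraries. With the striatum markers it was 0.09 and -0.42. Without the low-marker striatum libraries of mice M754 and M761, both WT, the change of Clock was 0.13 (SE 0.079, edgeR p = 0.109). Without those labelled as repeated, from the WT mice M751 and M752, it was 0.09 (edgeR p = 0.145). With no surrogate variables the changes in striatum were 0.26 for Clock (SE 0.11, edgeR p = 0.0278) and 0.34 for Nr1d2 (SE 0.16, edgeR p = 0.0449). Both then had an adjusted p of 0.835 by edgeR.

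Dbp and Arntl, which peak at roughly opposite phases in a running clock, showed no genotype difference past either threshold. Dbp ran from 48.4 to 131 CPM in Mbd5+/GT and from 40.3 to 144 CPM in WT cerebellum, from 42.9 to 106 and from 46.9 to 116 CPM in cortex, and from 81.2 to 200 and from 68.6 to 220 CPM in striatum. Its fold changes were 0.07 (SE 0.22), -0.02 (SE 0.13) and -0.14 (SE 0.17). Arntl had fold changes of -0.07 (SE 0.092), -0.09 (SE 0.077) and 0.00 (SE 0.11), with the genotypes overlapping in each region. The genotype effect on a member was also compared between regions, in a fit with no surrogate variables that took the libraries of a mouse as independent. No member then passed an adjusted or an unadjusted p of 0.05 in any pair of regions by edgeR or DESeq2. Of all genes 0% passed the adjusted threshold in each pair by edgeR, and 1.11%, 2.68% and 4.22% the unadjusted one. With the mouse as a block a member did pass the unadjusted threshold between cortex and striatum by edgeR. The largest such difference was that of Nr1d2 between cortex and striatum, -0.39 on the log2 scale (SE 0.22, edgeR p = 0.0797). With no surrogate variables the fold changes of Nr1d2 were -0.03 (SE 0.13) in cortex and 0.34 (SE 0.16) in striatum.

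Genes around the loop were also compared by genotype. No gene of the other lists described here passed an adjusted p of 0.05 in a region. At the unadjusted threshold, the other activators and repressors gave 0, 2 and 0 of 6 in cerebellum, cortex and striatum, led by Npas2 in cortex (log2 fold change -0.28, edgeR p = 0.00141, adjusted p = 0.310) and Arntl2 in cortex (0.12, edgeR p = 0.0109, adjusted p = 0.436). The clock kinases and ligases gave 0, 1 and 1 of 8 (Gsk3b), lower in Mbd5+/GT in cortex and higher in striatum. The PAR bZIP factors and the rhythmic outputs gave 0 in each region, the glucocorticoid targets 1, 1 and 0 of 10 (Pdk4), and the immediate early genes 0 of 9, 0 of 10 and 1 of 10 (Arc). Between cortex and striatum the genotype effect differed at the unadjusted threshold for 2 of the 8 kinases and ligases (4.22% of all genes). They were Gsk3b (-0.37, edgeR p = 0.0115) and Csnk1a1 (-0.25, edgeR p = 0.0443), each with an adjusted p of 0.989. No other gene of these lists passed it in any pair of regions.

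**Figure D2:**
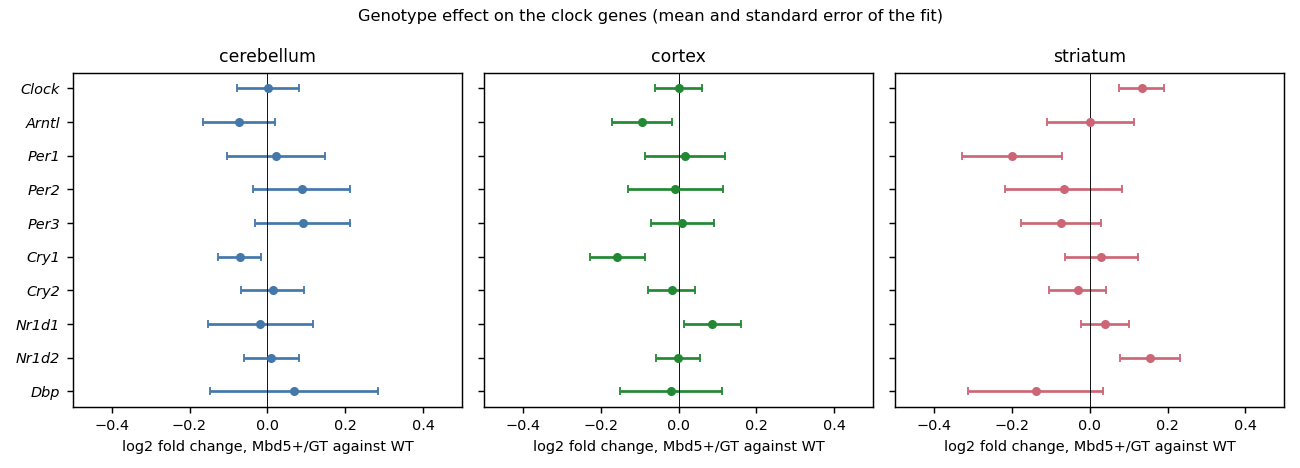
Fitted log2 fold change of each clock gene, Mbd5+/GT against WT, in each region; points are the estimates and bars 1 standard error, from 10 Mbd5+/GT and 8 WT libraries. With the surrogate variables in the model all estimates lie between -0.20 and 0.16, and none passed an adjusted p of 0.05. Without them Nr1d2 in striatum stood at 0.34 and Clock in striatum at 0.26.

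Litter was compared as the nearest label to a shared time of sampling, although no label says that a litter was killed at the same hour. Litter and sex largely coincide, litter 1 being female and litter 2 male, so their effects cannot be told apart for those litters. By edgeR no member passed an adjusted p of 0.05 in a region, where the share of all genes that did was 0% for cerebellum, 0% for cortex and 0.0162% for striatum. DESeq2's likelihood ratio test called none in cerebellum and cortex and 1 in striatum (Arntl, adjusted p = 0.0380). At the unadjusted threshold edgeR gave 1 member in cerebellum (13.3% of all genes), 2 in cortex (7.8%) and 1 in striatum (12.2%). Litter accounted for 51.8% of the variance of log2 CPM of Per3 in cortex, 51.1% of Arntl in striatum, 48.9% of Nr1d2 in cortex and 43.4% of Per3 in cerebellum, beside 16.6%, 13.8% and 11.7% for the median gene in cerebellum, cortex and striatum. For Cry2 in striatum it was 0.429%, the lowest value of any member.

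Per3 was highest in litter 1 in each region. It averaged 86.6 ± 18.6 CPM in litter 1 (SD, n = 6), 59.4 ± 4.93 in litter 2 (n = 5) and 68.6 ± 15.7 in litter 3 (n = 7) in cerebellum, and 90.9 ± 11.7, 61.4 ± 12.1 and 75.6 ± 13.1 in cortex. The litter 1 values of cerebellum, 69.4 to 115 CPM, lay above those of litter 2, 52.5 to 64.2 CPM, without overlap. In cortex litter 1 ran from 77.9 to 105 CPM and litter 2 from 47.8 to 74.6 CPM, again without overlap. Litter 2 differed from litter 1 by -0.60 on the log2 scale in cerebellum (SE 0.16, edgeR p = 0.00528, adjusted p = 0.370) and by -0.60 in cortex (SE 0.14, edgeR p = 0.00169, adjusted p = 0.560), and by -0.37 (SE 0.20) in striatum, where the test over litters gave an edgeR p of 0.197.

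In cerebellum Per3 moved with the choroid plexus markers (r = 0.67 over 18 libraries, a description), whose median sum was 1231 CPM in litter 1, 24.7 CPM in litter 2 and 249 CPM in litter 3. In cortex Per3 did not (r = 0.06), and there the median sums were 76.1, 48.8 and 83.4 CPM. The part of these markers in the litter difference was not tested.

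Nr1d2 also stood highest in litter 1 of cortex, at 199 ± 24.9 CPM against 149 ± 20.7 in litter 2 and 151 ± 28.4 in litter 3. The ranges were 165 to 224, 136 to 185 and 112 to 203 CPM and overlapped. Litter 2 differed from litter 1 by -0.42 (SE 0.13) and litter 3 by -0.39 (SE 0.12), with an edgeR p of 0.00450 over litters and an adjusted p of 0.591.

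Arntl, the activator that REV-ERB proteins repress, had the opposite order of litters in striatum. It averaged 29.9 ± 5.31 CPM in litter 1, 47.9 ± 9.87 in litter 2 and 38.0 ± 7.78 in litter 3. Litter 1 ran from 24.4 to 39.6 CPM and litter 2 from 37.3 to 58.3 CPM, with 1 litter 1 mouse inside the range of litter 2. Litter 2 exceeded litter 1 by 0.71 (SE 0.17, edgeR p = 0.00182 over litters, adjusted p = 0.249), and the same difference was 0.38 (SE 0.28) in cerebellum and 0.31 (SE 0.13) in cortex. Arntl in striatum moved with the striatum markers (r = 0.61) and against the cerebellum markers (r = -0.66) over 18 libraries, and the median sums were 2417, 3009 and 1463 CPM for the former and 126, 19.99 and 19.4 CPM for the latter in litters 1, 2 and 3. Their part in the difference was not tested.

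With sex in the model no member passed the unadjusted threshold for litter in any region. Without the 2 low-marker cerebellum libraries, both of litter 3, Arntl, Per1, Per2, Per3 and Nr1d2 passed it in cerebellum (edgeR p between 0.00220 and 0.0486, adjusted p = 0.554 each), where 8.19% of all genes passed. Without the 2 of striatum Arntl, Per3 and Nr1d2 passed, against 11% of all genes. Among the other lists described here no gene passed an adjusted p of 0.05 for litter. At the unadjusted threshold the other activators and repressors gave 1, 3 and 2 of 6 in cerebellum, cortex and striatum. The smallest p was that of Ciart in cortex, which was lower in litter 2 than in litter 1 by 0.81 on the log2 scale (edgeR p = 0.00630). The PAR bZIP factors and Nfil3 1, 1 and 0 of 3, the kinases and ligases 1, 0 and 0 of 8, the rhythmic outputs 0 in each, the glucocorticoid targets 4, 2 and 3 of 10, and the immediate early genes 0 of 9, 1 of 10 and 3 of 10.

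Agreement between the 3 regions of a mouse was examined by correlating a gene's log2 CPM between regions over the 18 mice, with p from 100000 permutations and adjustment over all genes tested. A single level at an unknown hour does not fix a phase, so these correlations compare levels, and phase itself was not tested. The values of Arntl show the pattern. In the 5 mice M757, M758, M759, M760 and M763, Arntl lay between 37.6 and 50.1 CPM in cerebellum, between 31.7 and 37.1 CPM in cortex and between 26.7 and 32.5 CPM in striatum. Of these, mice M757 and M759 were WT and the others Mbd5+/GT. At the upper end, the Mbd5+/GT mouse M764 stood at 65.2, 51.3 and 58.3 CPM and the WT mouse M765 at 60.3, 43.8 and 51.6 CPM, so that both genotypes were found at both ends. The mice at the lower end were all female and, but for M757 of litter 3, of litter 1, and both at the upper end were males of litter 2. They are given as examples chosen after the values were seen.

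Over all 18 mice no member passed an adjusted p of 0.05, where 0.263% of all genes did between cerebellum and cortex, 0.247% between cerebellum and striatum and 0.232% between cortex and striatum. At an unadjusted permutation p under 0.05, 5 members correlated between cerebellum and cortex (6.8% of all genes), 4 between cerebellum and striatum (8.28%) and 2 between cortex and striatum (9.69%), all 11 positively. The median r of the 10 members was 0.46, 0.27 and 0.32 in these pairs, beside medians of 0.09, 0.01 and 0.05 over all genes tested.

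Arntl and Per3 were past the unadjusted threshold in all 3 pairs. Arntl gave r = 0.46 (permutation p = 0.0455, adjusted p = 0.723), 0.56 (p = 0.0107, adjusted p = 0.391) and 0.57 (p = 0.0141, adjusted p = 0.370), with Spearman's rho of 0.64, 0.76 and 0.61 (permutation p = 0.00558, 0.000300 and 0.00847). Per3 gave r = 0.52 (p = 0.0248), 0.50 (p = 0.0351) and 0.48 (p = 0.0428), with rho of 0.48, 0.42 and 0.59 (permutation p = 0.0464, 0.0856 and 0.0118) and adjusted p between 0.498 and 0.629 for r. A further check left out the 2 mice farthest from the gene's median in the first-named region of a pair. Values far out only in the second region stayed in. Without these mice r of Arntl was 0.86, 0.76 and 0.48 and that of Per3 was 0.36, 0.33 and 0.54. On the 16 mice Per3 between cerebellum and either other region (permutation p = 0.165 and 0.207) and Arntl between cortex and striatum (p = 0.0578) missed the unadjusted threshold.

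Dbp correlated between cerebellum and cortex with r = 0.65 (permutation p = 0.00316, adjusted p = 0.288) and rho of 0.66 (p = 0.00387), the smallest p of any member there. Between cerebellum and striatum it gave r = 0.51 (p = 0.0278, adjusted p = 0.520) and rho of 0.51 (p = 0.0322), and between cortex and striatum r = 0.20 (p = 0.432). Without the 2 farthest mice these were 0.68, 0.40 and -0.05, with p = 0.130 between cerebellum and striatum. The highest Dbp values in both cerebellum and striatum, 144 and 220 CPM, came from the WT mouse M759, whose cortex stood at 115 CPM, next to the highest value of 116 CPM in the WT mouse M757.

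Per1 passed the unadjusted threshold between cerebellum and cortex (r = 0.60, permutation p = 0.00877, adjusted p = 0.467; rho 0.55, p = 0.0187), as did Cry1 (r = 0.47, p = 0.0488; rho 0.41, p = 0.0959). Cry1 also did between cerebellum and striatum (r = 0.49, p = 0.0320; rho 0.63, p = 0.00567). Without the 2 farthest mice, which were mice M754 and M755 with the low-marker cerebellum libraries, Per1 between cerebellum and cortex gave r = 0.48 (p = 0.0621), and Cry1 gave -0.05, so that its relation rested on them. Clock did not agree between regions, with r of 0.02, -0.15 and -0.22 in the 3 pairs. The REV-ERB genes gave 0.29, 0.20 and -0.09 for Nr1d1 and 0.08, 0.17 and 0.40 for Nr1d2, none past the unadjusted threshold over all 18 mice.

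The low-marker libraries bore on Arntl as well as on Cry1. In cerebellum Arntl moved with the cerebellum markers at r = 0.89 over 18 libraries and at 0.39 without the 2 low ones, in which Arntl stood at 14.1 and 26.2 CPM. Without mice M754 and M755, Arntl correlated between cerebellum and cortex with r = 0.86 (n = 16, permutation p = 6.0e-05, adjusted p = 0.0375, where 0.223% of all genes passed), the only member past the adjusted threshold in these correlations. These are also the 2 mice farthest from the median for Arntl in cerebellum, so both checks give the same r for this pair. When each gene instead lost its own 2 farthest mice, no member passed the adjusted threshold. Without the low-marker libraries r was 0.74 for Arntl between cerebellum and striatum (adjusted p = 0.282) and 0.68 between cortex and striatum (adjusted p = 0.385), and for Per3 it was 0.71, 0.72 and 0.61.

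Mice of a litter share their parents and their age, so the correlations were also computed on values centred on the litter mean. Arntl then gave 0.49, 0.58 and 0.38, and Dbp 0.63, 0.51 and 0.24. Per3 gave 0.11, 0.43 and 0.39, so that between cerebellum and cortex its agreement did not hold within litters. Nr1d2 between cerebellum and cortex went from 0.08 to -0.45 (permutation p = 0.0841), and Nr1d1 there from 0.29 to 0.54 (p = 0.0301, adjusted p = 0.888). Centred on the litter-by-genotype mean, Dbp kept r = 0.63 between cerebellum and cortex (p = 0.0415) and 0.58 between cerebellum and striatum (p = 0.108), and Arntl gave 0.48 (p = 0.126), 0.57 (p = 0.0153) and 0.36 (p = 0.271).

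**Figure D3:**
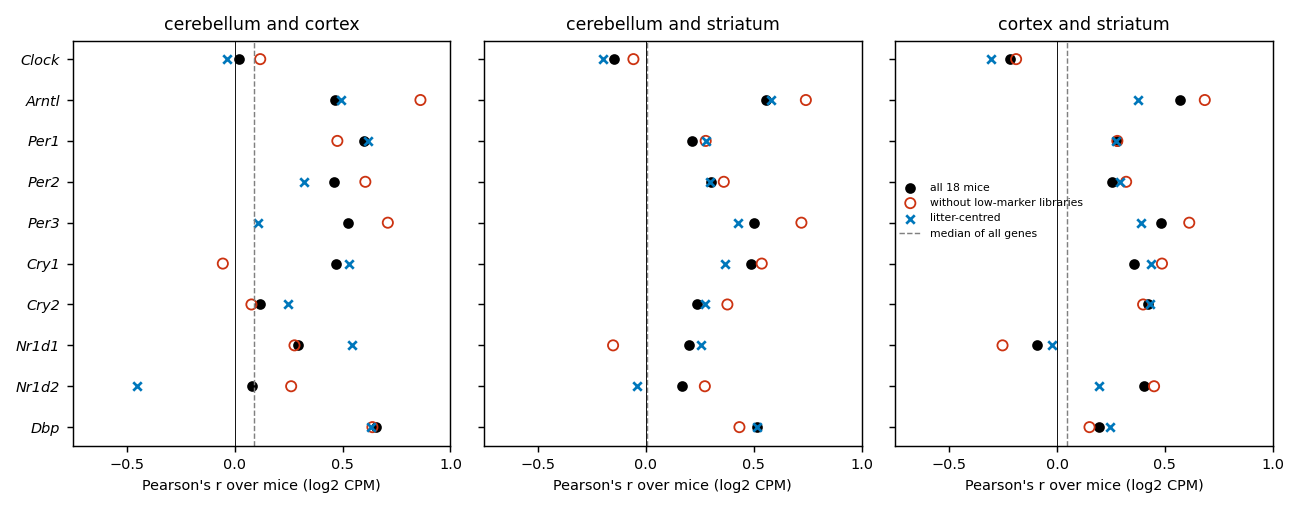
Pearson's r over mice of each clock gene's log2 CPM between pairs of regions, for all 18 mice, without the libraries low in the markers of their region, and on litter-centred values; the dashed line is the median r over all genes tested. Arntl lies to the right of the line in each panel and reaches 0.86 between cerebellum and cortex without the low-marker libraries, while Clock lies at or below 0.02 over all mice.

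**Figure D4:**
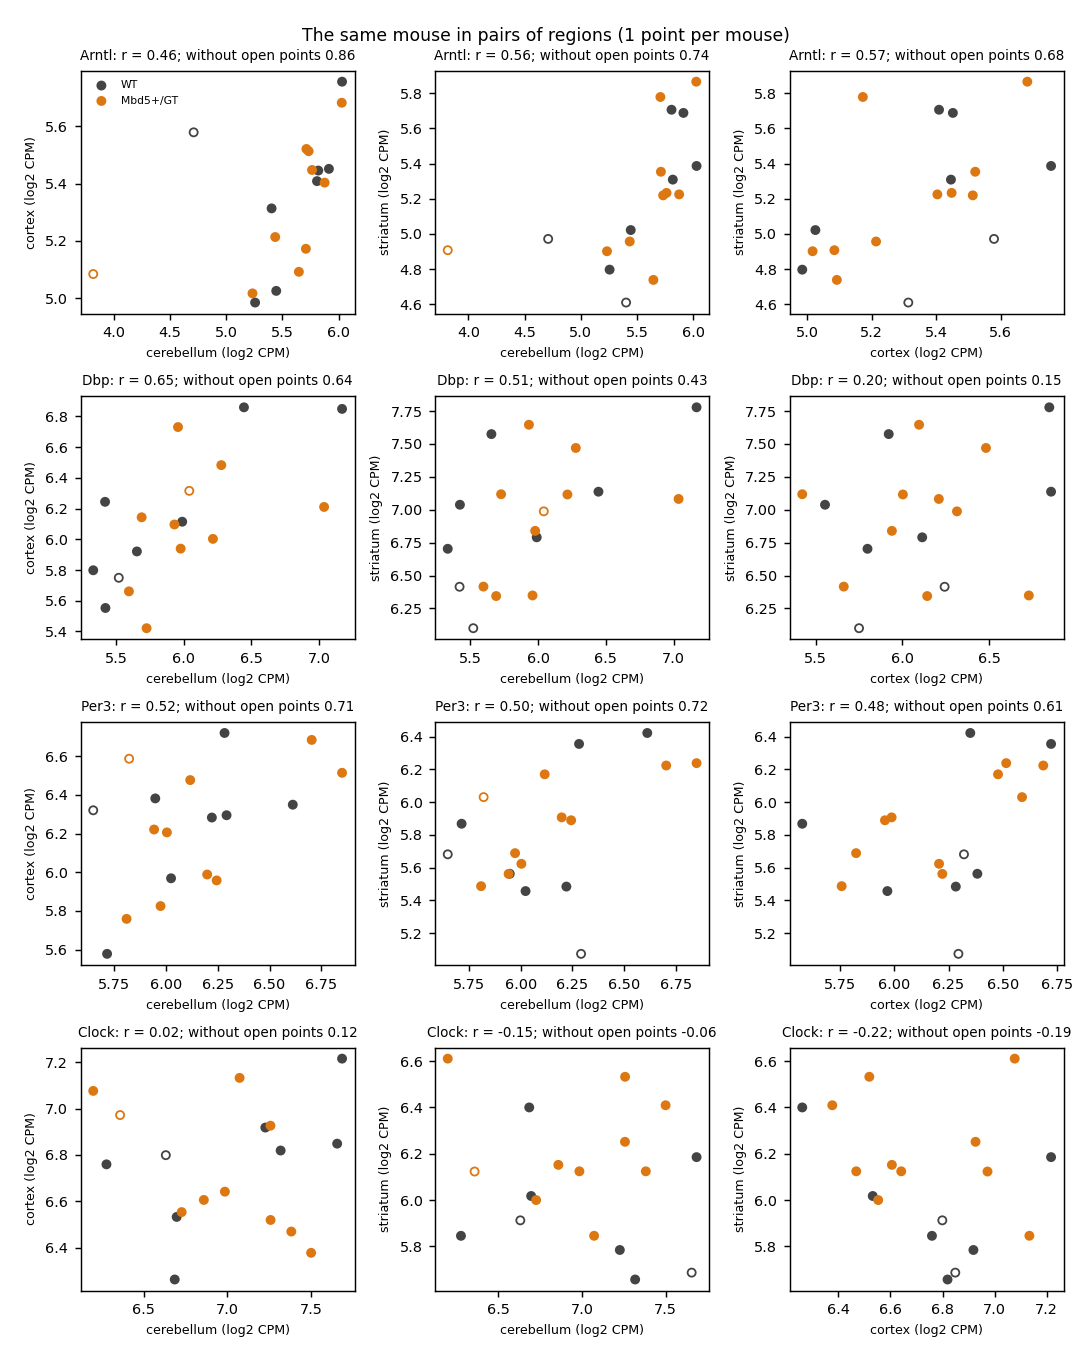
Log2 CPM of Arntl, Dbp, Per3 and Clock in 2 regions of the same mouse, 1 point per mouse, with WT in grey and Mbd5+/GT in orange; open points are mice with a low-marker library in either region. The open points of Arntl in cerebellum stand apart on the left at 14.1 and 26.2 CPM, and the closed points rise together.

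Of the other lists, Ciart and a group of glucocorticoid targets agreed between regions past the adjusted threshold. Ciart, whose promoter is shown above, gave r = 0.88 (adjusted p = 0.00875), 0.90 (adjusted p = 0.0134) and 0.85 (adjusted p = 0.0145) by permutation in the 3 pairs and held within litter and genotype groups at 0.86, 0.88 and 0.85. Plin4, a lipid droplet protein gene that glucocorticoids induce, gave 0.90, 0.85 and 0.95, Hif3a 0.87, 0.86 and 0.80, and Fkbp5, a cochaperone of the glucocorticoid receptor, 0.87 between cortex and striatum, all past the adjusted threshold. In counts at that threshold, 1, 1 and 1 of 6 other activators and repressors passed in the 3 pairs and 2, 2 and 3 of 10 glucocorticoid targets. No PAR bZIP factor, kinase, ligase, rhythmic output or immediate early gene did. At an unadjusted permutation p under 0.05, 8, 7 and 7 of the 10 glucocorticoid targets passed. So did 2, 1 and 2 of 6 other activators and repressors, 2, 1 and 1 of Tef, Hlf and Nfil3, 0, 0 and 3 of 8 kinases and ligases, 1, 0 and 1 of 3 rhythmic outputs, and 3 of 9, 1 of 9 and 3 of 10 immediate early genes.

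The log2 ratio of Dbp to Arntl combines these genes, which peak at roughly opposite phases in a running clock, into 1 value per library. It ran from -0.61 to 2.22 in cerebellum, from -0.20 to 1.86 in cortex and from 0.99 to 2.98 in striatum. Between regions it correlated over the 18 mice with r = 0.70 for cerebellum and cortex, 0.62 for cerebellum and striatum and 0.60 for cortex and striatum, with rho of 0.76, 0.48 and 0.50. These are given as descriptions with no p, since the ratio was built from members. On values centred on the litter-by-genotype mean r was 0.67, 0.66 and 0.56, and without the low-marker libraries 0.79, 0.73 and 0.57.

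The WT mouse M759 of litter 1 ranked second in cerebellum and first in both cortex and striatum, with ratios of 1.91, 1.86 and 2.98. At the other end the WT mouse M751 of litter 3 was lowest in cerebellum (-0.61) and cortex (-0.20) but not in striatum (1.65, rank 10 of 18), and the Mbd5+/GT mouse M756 was lowest in striatum (0.99). The highest cerebellum ratio, 2.22, was that of mouse M755 with the low-marker library. The genotypes overlapped fully, with means of 0.55 ± 0.84 in Mbd5+/GT and 0.32 ± 0.86 in WT cerebellum, 0.79 ± 0.53 and 0.77 ± 0.75 in cortex, and 1.72 ± 0.47 and 1.76 ± 0.61 in striatum (SD, n = 10 and 8). By litter the means were 0.73, 0.14 and 0.42 in cerebellum, 1.21, 0.46 and 0.63 in cortex and 2.08, 1.54 and 1.57 in striatum for litters 1, 2 and 3, with litter 1 highest in each region and the ranges overlapping.

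**Figure D5:**
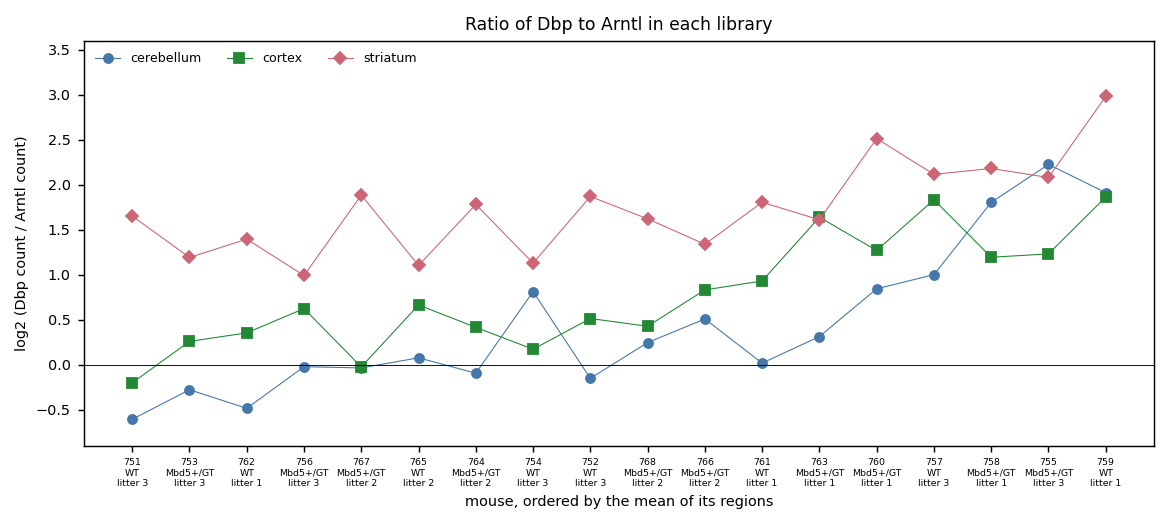
Log2 ratio of the Dbp count to the Arntl count in each library, with the 18 mice ordered by the mean of their 3 regions and named by number, genotype and litter; lines join the values of a region. The order is made from the values plotted; the highest mean is that of M759 and the lowest that of M751, whose striatum value of 1.65 lies above those of M753, M762 and M756, and striatum lies highest in all mice but M755 and M763.

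Across mice the members did not move as 1 block. The standard deviation of log2 CPM was largest for Arntl and Dbp in cerebellum (0.52 each) and for Dbp in cortex (0.42) and striatum (0.48), beside a median of 0.34, 0.25 and 0.31 over all genes tested. Without the 2 low-marker cerebellum libraries the standard deviation of Arntl there was 0.25 and that of Cry1 went from 0.51 to 0.20, while that of Dbp was 0.54, beside a median of 0.28 over all genes. Cry2 in striatum had the smallest, 0.15. As descriptions over the 18 mice of a region, in which the points share a library, its depth and its tissue makeup, the pairs with the highest mean r over the 3 regions were Per1 and Cry2 (0.78), Clock and Nr1d2 (0.75), Per3 and Nr1d2 (0.75), Per1 and Per2 (0.74) and Per2 and Per3 (0.72). Clock and Dbp had the lowest mean, -0.47, with -0.76 in cerebellum, -0.42 in cortex and -0.24 in striatum.

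Arntl and Dbp went in opposite directions in 2 of the 3 regions. Their r was -0.73 in cortex and 0.29 in striatum, and in cerebellum it was -0.27 over 18 libraries and -0.72 without the 2 low-marker ones. In striatum, where both moved with the striatum markers, r without the 2 low-marker libraries was 0.16. In cortex r with the striatum markers was 0.55 for Dbp and -0.39 for Arntl. In cerebellum without the low-marker libraries it was 0.68 for Dbp and -0.03 for Arntl. The part of tissue makeup in the relation of Arntl and Dbp was not tested in any region. Arntl and Per3 gave -0.51 in cortex and -0.40 in striatum, and without the low-marker libraries -0.50 in cerebellum and -0.79 in striatum.

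The genes most like Dbp were taken as those with the highest mean r over the 3 regions, among 17220 other genes tested in all of them. They were Ephx1 (0.82), Ciart (0.81), Tef (0.75), Slc26a10 (0.74), Gkn3 (0.73), Lmo2 (0.73), Rarg (0.71), Rps6ka4 (0.69), Tagln (0.68) and Bhlhe41 (0.68). Ciart, Tef and Bhlhe41 are clock genes outside the 10 members, Tef being a PAR bZIP factor like Dbp and Bhlhe41 a repressor of E-box transcription. In the promoter windows described above, Ciart held 3 E-boxes, and Tef at both of its starts and Bhlhe41 held 1. The 5 genes at the other end were Opcml (-0.72), Spred3 (-0.70), Ppp1r26 (-0.69), Kif2a (-0.69) and Nrip3 (-0.67).

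For Arntl the nearest genes were Ppp6r1 (0.79), Cap2 (0.76), Fam78b (0.76), Coro2b (0.75), Txlna (0.75), Nedd4l (0.74), Akt2 (0.74), Zfp385b (0.74), Foxk2 (0.74) and Fam53b (0.73), none of them in the clock lists. This order depended on the 4 low-marker libraries. Without them Npas2, the partner of ARNTL in forebrain, had the sixth highest mean r with Arntl (0.69), and Bhlhe41 (-0.72) and Ciart (-0.71) had the 2 lowest of all 17220 genes. Usp2, an output gene of the loop, then had the second highest mean r with Dbp (0.80). Those 4 genes were singled out after their values were seen.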

How the data were processed

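Poly(A) RNA from frozen cerebellum, cortex and striatum of 18 mice was sequenced by the authors. Per the labels and the study's methods, they checked reads with FastQC 0.10.1, aligned them with STAR 2.4.2 to GRCm38 with the Ensembl annotation, and deposited STAR's raw gene counts, 1 column per library. Which strand column was taken is not given in the sources used here. The table held 47069 genes, of which 46574 identifiers matched GENCODE vM21, and 92 ERCC spike-ins, 0.0207 to 0.728% of a library's counts, which were left out.

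From these counts, genes with a count above 4 in at least 8 libraries were kept within each comparison. Genotype was tested per region with edgeR 4.0.16 (quasi-likelihood, TMM) in R 4.3.3 with surrogate variables from sva 3.50.0. The count filter, the surrogate variables and their number followed the study's methods, which name DESeq2 for normalization and not edgeR. Litter was tested with genotype and no surrogate variables. Regions and the difference of the genotype effect between regions were tested over all 54 libraries, also with no surrogate variables. P-values were adjusted by Benjamini-Hochberg over all genes tested. Agreement between regions used log2 CPM (prior count 2) and 100000 two-sided permutations of the mice, with 1.0e-05 the smallest p they can give. A mouse number marks the same animal in all 3 regions, which pairs the libraries, and the mouse was taken as a block in an alternative. DESeq2 1.42.0, other scalings, filters, covariates and left-out libraries were the other alternatives. The edgeR tests of genotype and litter and the permutation test of agreement were tried on simulated data. Figures were drawn with matplotlib 3.10.9.

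The members and all lists were chosen with earlier results of these data known. Named beside the members were genes of a list past the adjusted threshold (at most 4), or otherwise at most 2 by smallest p, and the 10 genes nearest Dbp and Arntl and the 5 farthest from Dbp. One further list is not reported here. The limit for low-marker libraries, and leaving out repeated libraries in the agreement, were chosen after seeing the data. P-values measure the spread between mice. For genotype this is the spread left after the surrogate variables. Those accounted for 75.9%, 58.6% and 63.6% of the variance of log2 CPM of the median gene in cerebellum, cortex and striatum. The main tests across regions took the libraries of a mouse as independent.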

Additional observations from a re-analysis of the deposited data

Results flagged for a closer look

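In 5 of 60 groups of a member, region and genotype a single mouse stood apart from the rest by Dixon's test, which flags about 1 in 20 groups by chance. In Mbd5+/GT cerebellum M755, whose library held 2.37% of the region's median of cerebellum markers, was lowest for Arntl at 14.1 CPM against 37.6 to 65.2 CPM in the other 9 mice. The same library was lowest for Per1 at 50.6 CPM against 90.5 to 142 CPM and for Cry1 at 13.9 CPM against 42.0 to 56.3 CPM. In the cortex of M755, which was not low in its markers, Arntl stood at 33.9 CPM, inside the range of the other Mbd5+/GT mice. In Mbd5+/GT cortex M760 was highest for Per2 at 103 CPM against 48.5 to 69.0 CPM. In Mbd5+/GT cerebellum M758 was highest for Dbp at 131 CPM against 48.4 to 77.6 CPM, and the WT range there reached 144 CPM. No cause of these values was tested.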

How the results depend on the processing

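With the mouse as a replicate block, 7, 8 and 6 members differed between cerebellum and cortex, cerebellum and striatum, and cortex and striatum, and 1 member passed the unadjusted threshold for a difference of the genotype effect between cortex and striatum, against 0 without the block. In WT mice alone 3 members differed between cerebellum and cortex, against 6, on 8 mice in place of 18. For genotype, members past the unadjusted threshold numbered 0 in cortex with no filter on low counts, against 1. In striatum they numbered 2 without surrogate variables and 2 with litter and sex as covariates, against 1, and 0 without litter 2, 0 without the libraries labelled as repeated and 0 without the low-marker libraries. For litter, adding sex gave 0 members in each region. DESeq2's likelihood ratio test gave 5 in cerebellum unadjusted and 1 in striatum adjusted, a model with no genotype term 2 in cerebellum, leaving out the low-marker libraries 5 in cerebellum and 3 in striatum, and leaving out the repeated ones 2 in striatum. Leaving out each mouse gave 1 to 5 in cerebellum, 2 to 4 in cortex and 1 to 4 in striatum, the upper ends without M761 (5 and 4) and M757 (4), and 0 adjusted throughout. For agreement, litter-by-genotype centring gave 2, 1 and 1 members unadjusted and leaving out the 2 farthest mice 2, 2 and 1, against 5, 4 and 2. Litter centring gave 1 between cerebellum and striatum and 0 between cortex and striatum, and leaving out the repeated libraries 1 in the latter. Without the low-marker libraries 1 member (Arntl) passed the adjusted threshold between cerebellum and cortex. Between the same regions r of Per3 turned to -0.026 under litter-by-genotype centring and that of Cry1 to -0.055 both without the 2 farthest mice and without the low-marker libraries. The causes were not tested. The other 254 count settings stayed within 1.5 times their main counts. Over single members 303 settings kept direction and side of the adjusted threshold, and 6 fell short of it, all in WT mice alone. Members past only the unadjusted threshold were short of the adjusted one from the start. For these, keeping that side does not show that the unadjusted p held, and that of Clock in striatum did not in some settings given above. Counts of 319 or more per member leave the spread between mice, and not depth, as the limit.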
